A study of Mus musculus with 9 samples.

Results

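The comparison described here sets NIH 3T3 cells treated with cytochalasin D against control cells, on 6 of the 9 arrays of the series. NIH 3T3 is an established line of mouse embryo fibroblasts. The arrays were taken by their agent label: 3 read control and 3 read cytochalasin D (2 µM, 90 min). All cells of both groups had been deprived of serum and carried cycloheximide at 3 µg/ml for 2 h, so the changes described are those of transcripts under an inhibitor of protein synthesis. The labels of the controls name no vehicle. The remaining 3 arrays, of cells given latrunculin B (5 µM) together with cytochalasin D, entered the estimate of the spread and are called the double-drug arrays. Their titles name latrunculin B alone, and their agent labels name both drugs. The series design calls the 3 cultures of a condition independent biological replicates, and the titles number them 1, 3 and 7. Cultures of the same number were treated as pairs. Values below are given in the order 1, 3, 7.

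Cytochalasin D caps the growing ends of actin filaments and binds to actin monomers (G-actin). Monomeric actin holds the coactivator MRTF out of the nucleus, and cytochalasin D is known to release MRTF, which then binds serum response factor (SRF) and switches on genes of the actin cytoskeleton. SRF binds a short element called the CArG box. Beside this pathway, a cell that loses its stress fibres and focal adhesions is known to change its signalling through MAP kinases and YAP. Immediate-early genes are the genes that respond to such signals without new protein, and many of their transcripts are short-lived. Cycloheximide is known to lengthen the life of many such transcripts, and both groups carried it.

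The cells showed the transcripts of fibroblasts on all arrays. Of 13 fibroblast markers with a probe set, 11 had a mean intensity of at least 100 over the 6 arrays, among them S100a4 (24622), Col1a2 (23614), Vim (23101) and Col3a1 (22899), and their summed intensity was 116070 to 124138 in controls and 112707 to 120420 with cytochalasin D. Thy1 (0.42, adjusted p = 0.0364, limma) was the marker called among the 11 tested. It lost its call without any 1 array other than double-drug 7 (adjusted p = 0.0562 to 0.14) and with no replicate block (adjusted p = 0.351). Pdgfra was not called on the probe set with the highest mean, but 1 of its 3 probe sets was called lower. All 6 endothelial markers lay at or below 5.65, all 4 adipocyte markers at or below 9.39 and all 6 skeletal muscle markers at or below 8.14. Of 8 leukocyte markers, Cd14 (172) and Lyz2 (128) exceeded 100, and of 7 epithelial markers Krt14 (130) did. None of these was called.

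After control probe sets were left out, 27034 of 45037 probe sets were bright enough to be tested, and 1044 of them (3.86%) were called by limma at an adjusted p under 0.05 with the pairs in the model. Of these 626 were higher (2.32%) and 418 lower (1.55%) with cytochalasin D, and 223 and 28 changed at least 2-fold. All 1044 changed the same way in the 3 pairs, which 32.2% of all tested probe sets did. In 827 the 3 treated and 3 control values did not overlap, against 11.5% of all tested probe sets. The calls were made on these same values and favour such probe sets, so both counts describe the calls and lend them no further support. With 1 probe set per gene, 586 of 12660 genes were called (4.63%), 326 higher (2.58%) and 260 lower (2.05%). Their median log2 changes were 0.77 and −0.41, whereas the median over all genes tested was −0.0044.

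The number of calls rests on the model and on single arrays. With no replicate block 423 probe sets were called (1.56%), 309 higher and 114 lower, and 400 (1.48%) were called in both fits. When limma was fitted to the 6 arrays alone, the pairs left 2 residual degrees of freedom and 0 probe sets were called, with 3875 at an unadjusted p under 0.05, and without the pairs 159 were called. Without control 1, 3 or 7 the count with the pairs was 594, 438 and 483. Without cytochalasin D 1, 3 or 7 it was 1085, 354 and 370, and without cytochalasin D 1 the falls outnumbered the rises (593 against 492). At an unadjusted p under 0.05 the falls were also the more numerous in the fit of all 9 arrays (2734 against 2351). Without double-drug 1, 3 or 7 the count of calls was 546, 527 and 601. Of the 586 called genes, 143 were called in all 9 of these fits, 109 higher and 34 lower, and 101 of the 143 also with no replicate block. Of all 12660 genes 1.93% were called with no replicate block and 1.82% in both fits. Of 329 called genes with more than 1 tested probe set, 250 had probe sets that differed in call, and the values given are those of the probe set with the highest mean. Each result below therefore carries the arrays and the model it depends on.

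**Figure D1:**
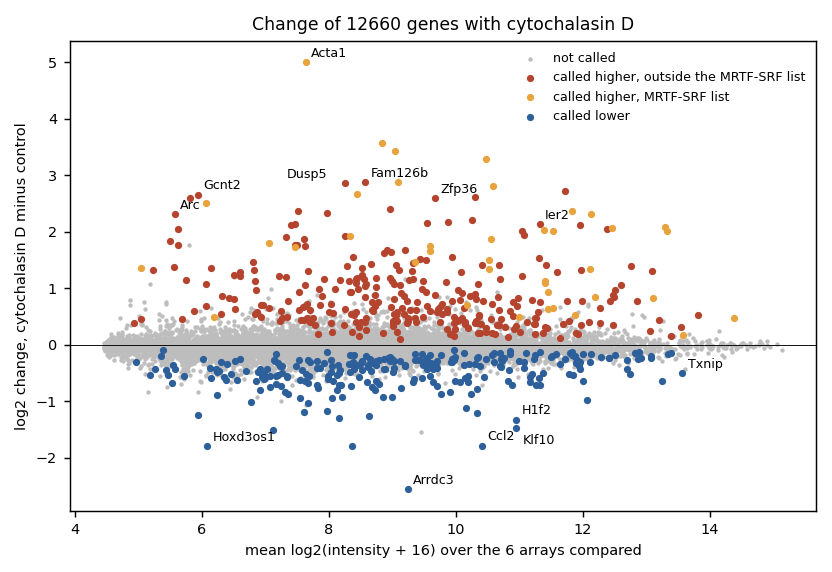
Log2 change with cytochalasin D (vertical axis) against the mean log2(intensity + 16) over the 6 arrays (horizontal axis) for 12660 genes, 1 point per gene. Called rises outside the MRTF-SRF list are red, those of the list orange and falls blue. Rises reach 5.00 (Acta1) and the largest fall is −2.56 (Arrdc3).

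The actin-linked programme served as the reference for the rest. Of 52 tested genes of an MRTF-SRF target list, 39 rose, 0 fell and 13 were not called, with a median log2 change of 1.23. Over all genes 2.58% were higher. The list was chosen with earlier results of these data known, so its counts are a description and not a test. With no replicate block 31 rose, and 21 rose in every fit that left out an array. Cnn1, counted in the 39 and the 21, had all 3 controls under the filter on dim probe sets and was tested through its treated values. Acta1, skeletal muscle alpha-actin, had intensities of 18.7, 20.4 and 18.5 in the controls and 799, 995 and 1710.1 with cytochalasin D, a log2 change of 5.00 (SE 0.25, adjusted p = 0.0035). No control exceeded 20.4 and no treated culture was below 799. The other largest rises of the list were Myl9, a myosin regulatory light chain (3.56, adjusted p = 0.00378), Nppb, a natriuretic peptide (3.43, adjusted p = 0.00977), and Tagln, transgelin (3.28, adjusted p = 0.0155). Acta1 and Myl9 remained called with any single array left out. Nppb lost its call without cytochalasin D 3 or cytochalasin D 7 (adjusted p = 0.0576 to 0.0594). Tagln lost its call without control 3, cytochalasin D 3, cytochalasin D 7 or double-drug 3 (adjusted p = 0.0502 to 0.0757). Binding of transcripts of related actin genes to the Acta1 probe set was not tested. The remaining text concerns the 287 genes that rose and the 260 that fell outside this list.

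**Figure D2:**
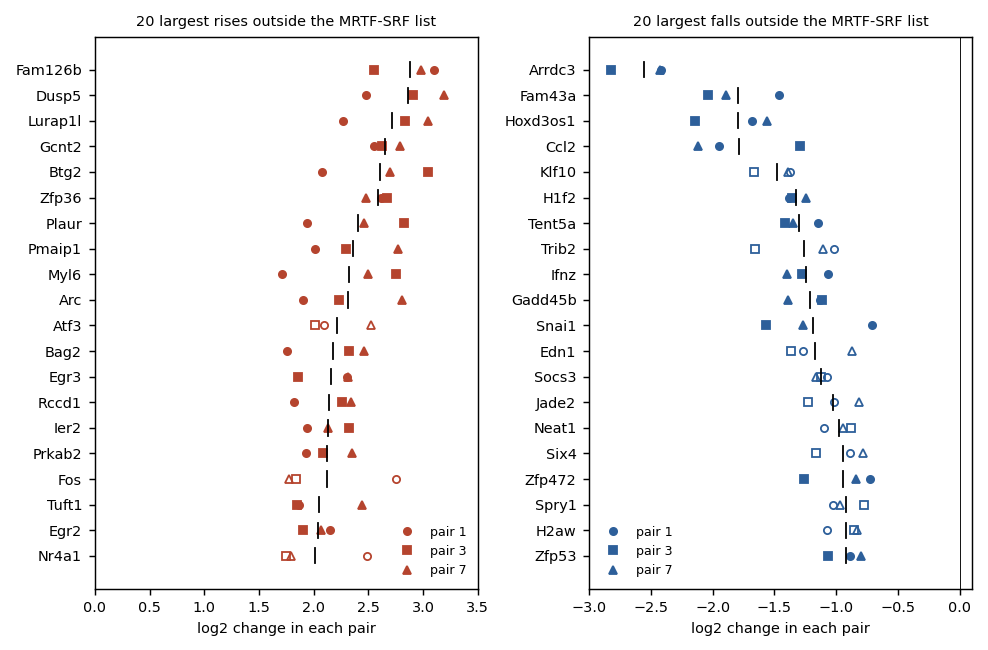
Log2 change in each pair (horizontal axis) for the 20 largest rises (left) and the 20 largest falls (right) outside the MRTF-SRF list. Circles, squares and triangles are pairs 1, 3 and 7, black bars the fitted changes, and open symbols mark genes not called with no replicate block. The controls of Arc lay under the filter on dim probe sets, so it was tested through its treated values and its points are a description only. The 20 fitted rises lie between 2.01 and 2.88 and the 20 falls between −0.92 and −2.56.

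Among the 20 largest rises outside the list were Dusp5 and Zfp36, whose products end signals, and Lurap1l. Dusp5, a nuclear phosphatase that inactivates ERK, had intensities of 124, 89.1 and 81.5 in the controls and 765, 774 and 873 with cytochalasin D, and its log2 change was 2.86 (SE 0.18, adjusted p = 0.00457). Zfp36 encodes tristetraprolin, which binds short-lived mRNAs and speeds their decay. Its intensities were 285, 288 and 389 in the controls and 1826, 1913 and 2239 with cytochalasin D, a change of 2.59 (SE 0.05, adjusted p = 0.000381). Lurap1l, named for its likeness to a leucine-rich adaptor protein, had 1790.1, 1254 and 970.4 in the controls and 8659, 9021 and 8115 with cytochalasin D, a change of 2.71 (SE 0.16, adjusted p = 0.00378). For all of these the lowest treated value was several times the highest control value. All of these called genes remained called with any single array left out. For Lurap1l 2 of 3 probe sets were called higher.

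The promoters of these genes hold the element that SRF binds, although none of them was in the MRTF-SRF list. The CArG box was searched on both strands of RefSeq promoter windows, which run from 250 bases before to 50 bases after a start (assembly GRCm38.p6). Of 287 risers outside the list, 231 had a window, and 29 of their 315 windows held a match (9.21%), in 26 genes. Among all 32851 windows 1.63% held one, among the 12995 windows of tested genes 1.35%, among those of the MRTF-SRF list 11 of 55, and among those of the 260 fallers 1.87% (5 of 267). Of the windows of the 20 largest rises 9 of 23 held a match, in 6 of 15 genes, and of those of the 20 largest falls 0 of 20. The 6 were Dusp5, Lurap1l, Zfp36, Myl6, Prkab2 and Egr2. Egr2 gave 4 of the 9 windows, some of which overlap and hold the same box. Counted by gene, a match was held by 1.59% of tested genes with a window and by 1.81% of all genes with one. The stretches below, 90 bases each and read 5′ to 3′ along the gene, show matches in promoters of risers that no list of SRF targets here holds, with the CArG box in capitals.
Dusp5, chr19:53529028-53529117, plus strand: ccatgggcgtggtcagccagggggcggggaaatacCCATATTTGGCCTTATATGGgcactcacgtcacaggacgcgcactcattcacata
Lurap1l, chr4:80910468-80910557, plus strand: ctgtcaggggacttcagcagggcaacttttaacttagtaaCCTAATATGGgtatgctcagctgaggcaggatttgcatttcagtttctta
Zfp36, chr7:28379237-28379326, minus strand: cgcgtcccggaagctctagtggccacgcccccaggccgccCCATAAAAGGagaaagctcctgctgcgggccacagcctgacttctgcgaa
Filip1l, chr16:57549140-57549229, plus strand: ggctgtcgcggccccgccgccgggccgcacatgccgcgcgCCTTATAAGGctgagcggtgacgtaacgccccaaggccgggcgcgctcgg
Fermt2, chr14:45530220-45530309, minus strand: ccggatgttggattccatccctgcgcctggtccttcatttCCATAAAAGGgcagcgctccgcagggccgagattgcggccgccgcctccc
In Dusp5 a pair of boxes stands back to back, beginning 82 and 72 bases before the start. The box begins 178 bases before it in Lurap1l, 58 in Zfp36, 62 in Filip1l and 204 in Fermt2. Filip1l was chosen for printing after its value was seen. It encodes a protein named for its likeness to filamin A interacting protein, and rose from 2251, 2721 and 2581 to 4848, 6682 and 7723, a log2 change of 1.32 (SE 0.09, adjusted p = 0.00612). Filip1l remained called with any single array left out. A match is a string of letters and does not show that SRF was bound.

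Other motifs were searched in the same windows. The TATA box (TATAAA) was in 10.5% of the windows of the risers outside the list and 8.24% of those of the fallers, against 8.05% of the 12995 windows of tested genes and 13.6% of all windows. The CRE (TGACGTCA) was in 4.13% and 1.87%, against 2.86% and 1.79%. The AP-1 element (TGANTCA) was in 6.98% and 4.87%, against 5.53% and 7.81%. An NF-kappaB motif was in 5.40% and 3.75%, against 5.05% and 4.51%. Of the 535 windows with a CArG box, the box overlapped a TATA box match in 19, an NF-kappaB match in 1 and a CRE or AP-1 match in 0. Among the risers the share with a CArG box was several times that of the tested genes (1.35%). For the TATA box and AP-1 the risers lay above the tested genes and below all windows, so the direction of those differences depends on the background.

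Immediate-early transcription factors formed the next group. Of 31 tested, 15 rose, 2 fell and 14 were not called, with a median log2 change of 0.78. Calls made up 54.8% of this list, against 4.63% of all genes. With no replicate block 8 rose and 0 fell, and 8 rose and 1 fell in every fit that left out an array. Ier2, a nuclear protein induced by growth factors, had intensities of 1417, 1044 and 1181 in the controls and 5481, 5275 and 5237 with cytochalasin D, a change of 2.13 (SE 0.08, adjusted p = 0.00171), and the treated values differed from each other by less than the controls did. Atf3, a bZIP repressor of stress responses, had 421, 536 and 744 in the controls and 1850.3, 2204 and 4366 with cytochalasin D (2.21, adjusted p = 0.00378). Among zinc finger factors of the Egr family Egr3 had 221, 365 and 470.3 in the controls and 1151, 1369.9 and 2401 with cytochalasin D (2.16, adjusted p = 0.0086) and Egr2 had 1731, 3049 and 3400.2 in the controls and 7727, 11466 and 14279 with cytochalasin D (2.04, adjusted p = 0.00378). Egr1, the founding member of the Egr family, had 4192, 6684 and 6469 in the controls and 8967, 9661 and 10634 with cytochalasin D and the smallest change of the 3 (0.78, adjusted p = 0.0408). The orphan nuclear receptor gene Nr4a1 had 439.9, 1288 and 1906 in the controls and 2539.9, 4352 and 6656 with cytochalasin D (2.01, adjusted p = 0.00977).

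The AP-1 partners among these factors did not share one size of change. Fos, the partner of Jun in the AP-1 dimer, had 928, 2247 and 3229.8 in the controls and 6341, 8073 and 11055 with cytochalasin D (2.12, adjusted p = 0.016), so that control 7 stood at 3230 and treated culture 1 at 6341. Junb had 428, 389.5 and 365 in the controls and 1102, 1141 and 1218 with cytochalasin D (1.51, adjusted p = 0.00554), Fosl1 had 581, 607 and 639 in the controls and 1159.5, 1288 and 1593 with cytochalasin D (1.11, adjusted p = 0.00378), Jun itself had 6894, 4484 and 5469 in the controls and 11779.8, 12794 and 16857 with cytochalasin D (1.30, adjusted p = 0.0355), and Maff, a small Maf protein, had 81.6, 116 and 151 in the controls and 211, 329 and 402 with cytochalasin D (1.31, adjusted p = 0.00227). Nfil3, a bZIP repressor, had 162, 183 and 185 in the controls and 477, 489 and 494 with cytochalasin D (1.39, adjusted p = 0.00378). The smaller rises were Ier5 (1.22), Klf6 (0.84) and Rel (0.60), a subunit of NF-kappaB.

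The members that fell were Klf10, a Krüppel-like repressor known as an early target of TGF-beta, and Bhlhe40, a repressor linked to the clock. Klf10 had 2871, 2835 and 4298 in the controls and 1098, 883 and 1633 with cytochalasin D (−1.48, SE 0.08, adjusted p = 0.00378), with every control above every treated value. Bhlhe40 had 1095, 1456 and 1956 in the controls and 675, 1015 and 1116 with cytochalasin D (−0.67, adjusted p = 0.0127). Within the Krüppel-like factors Klf6 thus rose and Klf10 fell, and Klf4 and Klf2 had changes of −0.32 and −0.02 that did not pass the test (adjusted p = 0.138 and 0.991). Atf3, Egr3, Ier2, Egr2, Junb, Maff, Fosl1, Nfil3 and Klf10 remained called with any single array left out. Fos lost its call without control 3, cytochalasin D 3 or cytochalasin D 7 (adjusted p = 0.0513 to 0.0757). Nr4a1 lost its call without cytochalasin D 3 or cytochalasin D 7 (adjusted p = 0.0528 to 0.0533). Jun and Egr1 lost their calls without any 1 array other than control 1 (adjusted p = 0.052 to 0.137 and 0.0513 to 0.126). Klf6 lost its call without control 7, cytochalasin D 1, cytochalasin D 3, cytochalasin D 7 or double-drug 7 (adjusted p = 0.0539 to 0.0913). Rel lost its call without any 1 array other than cytochalasin D 1 (adjusted p = 0.0924 to 0.122). Ier5 lost its call without control 3 or cytochalasin D 3 (adjusted p = 0.0522 to 0.0525). Bhlhe40 lost its call without control 1 or cytochalasin D 7 (adjusted p = 0.0552 to 0.0636). Atf3, Fos, Nr4a1, Maff, Jun, Egr1 and Rel were not called with no replicate block (adjusted p = 0.0879, 0.13, 0.307, 0.135, 0.053, 0.14 and 0.0678). Klf10 and Bhlhe40 were not called with no replicate block (adjusted p = 0.0606 and 0.498). Klf6 had 3 of 5 tested probe sets called.

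**Figure D3:**
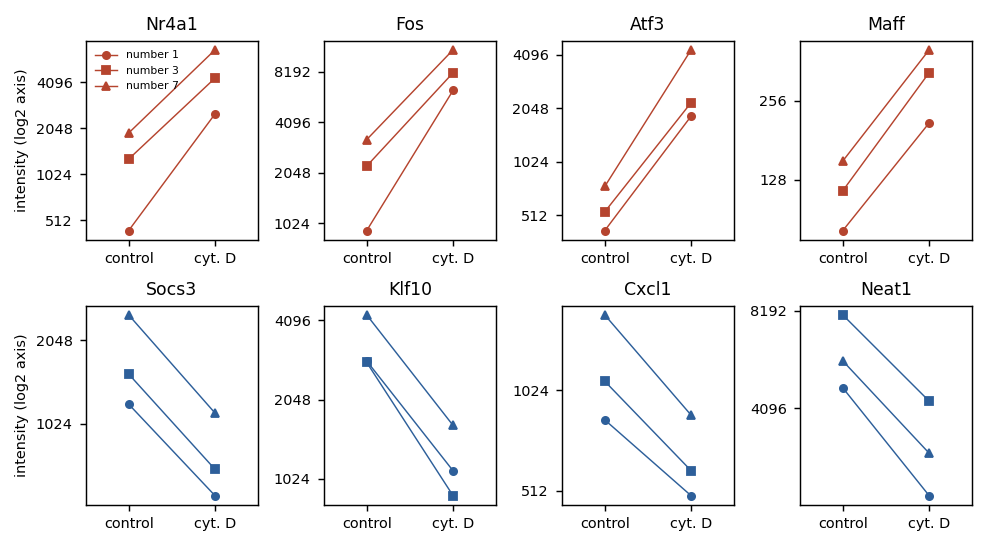
Intensity (vertical axes, log2 scaled) in control and cytochalasin D arrays for 8 genes, with a line joining the arrays of 1 number. Every line goes up in the upper panels and down in the lower ones, and the level of culture 1 is the lowest in each of the panels of Nr4a1, Fos, Atf3, Maff, Socs3, Cxcl1 and Neat1.

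In these genes the cultures differed in level before and after treatment, and the pairs kept the change apart from it. Nr4a1 in control 7 (1906) came near to Nr4a1 in treated culture 1 (2540), yet the pairs rose by 2.49, 1.74 and 1.80 on the log2 scale. Socs3, an inhibitor of cytokine signalling through JAK kinases, had 1205, 1548 and 2530.5 in the controls and 563, 701 and 1119 with cytochalasin D, and its pairs had changes of −1.08, −1.13 and −1.17. For the chemokine gene Cxcl1 (834, 1088 and 1719 in the controls and 494, 587 and 861 with cytochalasin D) the groups overlapped, because control 1 lay below treated culture 7. Neat1, the long noncoding RNA that builds paraspeckles, had 4731, 7940.2 and 5729 in the controls and 2200.2, 4306 and 2974 with cytochalasin D, and control 1 was close to treated culture 3. The groups overlapped in 217 of the 1044 called probe sets. The fitted changes were −1.12 (SE 0.11, adjusted p = 0.0127) for Socs3, −0.86 (SE 0.08, adjusted p = 0.0101) for Cxcl1 and −0.97 (SE 0.07, adjusted p = 0.00629) for Neat1. Neat1 remained called with any single array left out. Nr4a1 and Cxcl1 lost their calls without cytochalasin D 3 or cytochalasin D 7 (adjusted p = 0.0528 to 0.0533 and 0.0566 to 0.0587). Fos lost its call without control 3, cytochalasin D 3 or cytochalasin D 7 (adjusted p = 0.0513 to 0.0757). Socs3 lost its call without control 3, control 7, cytochalasin D 3 or cytochalasin D 7 (adjusted p = 0.0535 to 0.0696). Nr4a1, Fos, Socs3, Cxcl1 and Neat1 were not called with no replicate block (adjusted p = 0.307, 0.13, 0.291, 0.461 and 0.332). Neat1 had 1 of 2 tested probe sets called. What the culture numbers stand for is not stated in the labels, and the correlations between cultures of 1 number are given with the processing.

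Genes that govern mRNA decay and poly(A) tails moved both ways. Of 29 tested, 3 rose, 3 fell and 23 were not called, with a median of −0.0022. The called share was 20.7%, against 4.63% of all genes. With no replicate block 2 rose and 1 fell. Beside Zfp36, Btg2 rose, an antiproliferative protein that draws the CCR4-NOT deadenylase to mRNA: 737, 353 and 467 in the controls and 3161, 3032 and 3127 with cytochalasin D, a log2 change of 2.61 (SE 0.21, adjusted p = 0.00811). Zc3h12a, an endonuclease that cuts inflammatory mRNAs, also rose (0.86, adjusted p = 0.00865). The paralogues of Zfp36 went the other way: Zfp36l1 had 3576, 4298 and 4882 in the controls and 2401, 3069 and 3425 with cytochalasin D (−0.52, adjusted p = 0.00798) and Zfp36l2 had 4432, 5596 and 5418 in the controls and 2602, 3497 and 3931 with cytochalasin D (−0.63, adjusted p = 0.023), each with 1 of 2 probe sets called. Tent5a, a poly(A) polymerase outside the canonical family, had 429, 506 and 378 in the controls and 185, 180.2 and 139 with cytochalasin D (−1.30, SE 0.07, adjusted p = 0.00378), and no treated value came near a control. Btg2 and Tent5a remained called with any single array left out. Zc3h12a lost its call without cytochalasin D 7 (adjusted p = 0.0522). Zfp36l1 lost its call without cytochalasin D 3 (adjusted p = 0.0505). Zfp36l2 lost its call without any 1 array other than cytochalasin D 1, cytochalasin D 7 and double-drug 1 (adjusted p = 0.0554 to 0.104). Zc3h12a, Zfp36l1 and Zfp36l2 were not called with no replicate block (adjusted p = 0.298, 0.322 and 0.186). Zc3h12a had 1 of 2 tested probe sets called.

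Feedback inhibitors of receptor and MAP kinase signalling divided in the same manner. Of 27 tested, 2 rose, 4 fell and 21 were not called, with a median of −0.023, and with no replicate block 1 rose and 2 fell. The share called with the block was 22.2%, against 4.63% of all genes. Dusp5 rose as described, whereas Dusp7, a cytoplasmic phosphatase of ERK, had 209.9, 197 and 217 in the controls and 145, 151 and 147 with cytochalasin D (−0.45, adjusted p = 0.0159). Dusp1 and Dusp6 had changes of 0.42 and 0.61 that did not pass the test (adjusted p = 0.0909 and 0.0766). Among SOCS genes, Socs7 rose (0.58, adjusted p = 0.0203), while Socs3 and Socs5 fell. Socs5 had 1449.9, 1427 and 1328 in the controls and 963, 959.8 and 920.0 with cytochalasin D (−0.56, SE 0.03, adjusted p = 0.00418). Spry1, a Sprouty inhibitor of growth factor receptors, had 665, 678 and 528 in the controls and 319, 389.9 and 261 with cytochalasin D (−0.92, adjusted p = 0.0212). The Tribbles pseudokinases also parted: Trib1 had 276, 219.9 and 188 in the controls and 619, 475 and 562 with cytochalasin D (1.23, adjusted p = 0.00756) and Trib2 had 439, 728 and 676 in the controls and 208, 219 and 305 with cytochalasin D (−1.26, adjusted p = 0.0147), with 1 of 2 and 1 of 3 probe sets called. Socs5 and Trib1 remained called with any single array left out. Socs7 lost its call without any 1 array other than cytochalasin D 3, double-drug 1 and double-drug 3 (adjusted p = 0.0539 to 0.0859). Dusp7 lost its call without control 1, control 7, cytochalasin D 1, cytochalasin D 3 or cytochalasin D 7 (adjusted p = 0.0528 to 0.072). Spry1 lost its call without any 1 array other than control 3 and double-drug 3 (adjusted p = 0.0503 to 0.099). Trib2 lost its call without control 7, cytochalasin D 3, cytochalasin D 7 or double-drug 1 (adjusted p = 0.0502 to 0.0609). Socs7, Spry1 and Trib2 were not called with no replicate block (adjusted p = 0.331, 0.18 and 0.0667). Socs7 and Socs5 each had 1 of 2 tested probe sets called, and Dusp7 had 1 of 3.

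Secreted growth factors and their cell-surface partners contributed few but large rises. Calls made up 12% of the growth factor list, against 4.63% of all genes. Of 25 growth factor genes 3 rose and 0 fell (2 and 0 with no replicate block): Ereg, the EGF receptor ligand epiregulin, with 348, 301 and 294 in the controls and 1144, 863 and 1129 with cytochalasin D (1.68, SE 0.10, adjusted p = 0.00378), Hbegf, another such ligand, with 459, 302 and 290.0 in the controls and 850.0, 669 and 700.3 with cytochalasin D (1.07, adjusted p = 0.00798), and Inhba, a subunit of activin, with 359, 228 and 192 in the controls and 845, 864 and 704 with cytochalasin D (1.61, adjusted p = 0.0158). Fst, the activin antagonist follistatin, and Tgif1, a corepressor of SMAD proteins, were the 2 risers among 25 TGF-beta and BMP response genes (1.08, adjusted p = 0.0188 and 0.89, adjusted p = 0.0107), of which 0 fell. These calls made up 8% of the TGF-beta and BMP list, against 4.63% of all genes. That list leaves out Klf10, the early target of TGF-beta that fell and was counted with the immediate-early factors. Plaur, the receptor of urokinase, had 313, 150.1 and 172 in the controls and 1247, 1161 and 1017 with cytochalasin D (2.41, SE 0.17, adjusted p = 0.00605). Of 33 YAP/TAZ-TEAD targets and Hippo genes 2 rose and 1 fell (9.09% called), the risers being F3 and Crim1 and the other Gadd45b. This list leaves out Ccn1, Ccn2 and Ankrd1, targets of both pathways, which were counted among the rises of the MRTF-SRF list. F3, tissue factor, had 4418, 4389.6 and 4116 in the controls and 8022, 9560.1 and 9366 with cytochalasin D (1.05, adjusted p = 0.00725), and Crim1, which binds BMPs, a change of 0.55, adjusted p = 0.0117. Plaur, Ereg, Tgif1 and F3 remained called with any single array left out. Inhba lost its call without control 3, control 7, cytochalasin D 3 or cytochalasin D 7 (adjusted p = 0.0522 to 0.0824). Hbegf lost its call without cytochalasin D 3 (adjusted p = 0.0515). Fst lost its call without control 3, cytochalasin D 1, cytochalasin D 3, cytochalasin D 7 or double-drug 3 (adjusted p = 0.0531 to 0.0802). Crim1 lost its call without control 3 (adjusted p = 0.0604). Hbegf, Tgif1 and Crim1 were not called with no replicate block (adjusted p = 0.0619, 0.249 and 0.779). Crim1 and Fst each had 1 of 2 tested probe sets called.

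Genes of prostaglandins, other lipid mediators and G protein signalling held calls in both directions. Of 21 tested 2 rose, 5 fell and 14 were not called (median −0.016), and with no replicate block 2 rose and 1 fell. The share called with the block was 33.3%, against 4.63% of all genes. Ptgs2, cyclooxygenase 2, had 3821, 4024 and 4953 in the controls and 9611, 10795 and 13538 with cytochalasin D (1.40, SE 0.08, adjusted p = 0.00378), and Ptger4, a receptor of prostaglandin E2, had 1291, 1930.5 and 1880.0 in the controls and 3766, 4158 and 5659 with cytochalasin D (1.41, adjusted p = 0.00604). Both held 2 of 2 probe sets. Edn1, the vasoconstrictor peptide endothelin 1, had 519, 333 and 268 in the controls and 206, 119.6 and 139.6 with cytochalasin D (−1.17, adjusted p = 0.038), and Rgs2, which ends Gq signals, had 3471, 2879 and 2950.4 in the controls and 2303, 1894 and 1978 with cytochalasin D (−0.59, adjusted p = 0.0163). The phosphodiesterase gene Pde4b (−0.84), the sphingosine kinase gene Sphk1 (−0.55) and the lysophosphatidic acid receptor gene Lpar1 (−0.19) fell too. Ptger4 and Ptgs2 remained called with any single array left out. Edn1 lost its call without any 1 array other than control 7 and double-drug 1 (adjusted p = 0.0652 to 0.141). Pde4b and Rgs2 lost their calls without control 1, control 3, control 7, cytochalasin D 3 or cytochalasin D 7 (adjusted p = 0.0546 to 0.083 and 0.0612 to 0.0825). Sphk1 lost its call without any 1 array other than double-drug 7 (adjusted p = 0.0531 to 0.137). Lpar1 lost its call without control 1, control 3 or cytochalasin D 3 (adjusted p = 0.0582 to 0.0668). Edn1, Pde4b, Sphk1 and Lpar1 were not called with no replicate block (adjusted p = 0.119, 0.727, 0.0708 and 0.614). Sphk1 had 1 of 2 tested probe sets called, Lpar1 had 1 of 3, Pde4b had 2 of 4, and Rgs2 had 3 of 4.

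Regulators of apoptosis and targets of p53 were called in 27.3% of cases, against 4.63% of all genes. Of 33 tested, 7 rose, 2 fell and 24 were not called, while the median was −0.00092; with no replicate block 4 rose and 1 fell. The largest was Pmaip1, the BH3-only protein Noxa, with 89, 57.8 and 51.5 in the controls and 408, 347 and 444 with cytochalasin D (2.36, SE 0.21, adjusted p = 0.0107). Phlda1, a pleckstrin homology-like protein, had 893, 1016 and 1404 in the controls and 3171, 3776 and 6150.4 with cytochalasin D (1.94, SE 0.07, adjusted p = 0.00171), and the death receptor gene Fas had 108, 139 and 209 in the controls and 273, 377 and 412 with cytochalasin D (1.16, adjusted p = 0.00951). Zmat3 (0.99), Gadd45g (0.89), the repressor gene Bcl6 (0.77) and Mdm2, the ubiquitin ligase of p53 (0.43), rose by less. Gadd45b, a stress sensor of the Gadd45 family, fell: 1699, 1913 and 2311 in the controls and 765, 874 and 873 with cytochalasin D (−1.21, SE 0.07, adjusted p = 0.00378), with both its probe sets called. Ccng2, an unconventional cyclin, fell by 0.80 on the log2 scale. Gadd45a, the third of the family, had a change of −0.06 that was not called (adjusted p = 0.342). Phlda1 and Gadd45b remained called with any single array left out. Pmaip1 lost its call without control 3, cytochalasin D 3 or cytochalasin D 7 (adjusted p = 0.0557 to 0.0631). Fas lost its call without cytochalasin D 3 (adjusted p = 0.0591). Bcl6 lost its call without cytochalasin D 3 or cytochalasin D 7 (adjusted p = 0.0522 to 0.0528). Zmat3 lost its call without control 1 or cytochalasin D 7 (adjusted p = 0.0619 to 0.0639). Gadd45g lost its call without any 1 array other than control 1 and double-drug 3 (adjusted p = 0.0618 to 0.114). Mdm2 lost its call without any 1 array other than cytochalasin D 1 and cytochalasin D 3 (adjusted p = 0.0526 to 0.102). Ccng2 lost its call without any 1 array other than control 1 and cytochalasin D 1 (adjusted p = 0.0738 to 0.112). Fas, Gadd45g, Mdm2 and Ccng2 were not called with no replicate block (adjusted p = 0.157, 0.0813, 0.191 and 0.24). Mdm2 and Ccng2 each had 1 of 2 tested probe sets called.

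Stress response genes changed singly. Calls made up 14.3% of the integrated stress list and 11.5% of the heat shock list, against 4.63% of all genes. Of 28 genes of the integrated stress and unfolded protein responses 3 rose and 1 fell (3 and 0 with no replicate block): Trib1, Ppp1r15a, the phosphatase subunit that restores translation (1.13, adjusted p = 0.0126), and Atf4 (0.32, adjusted p = 0.00858, 1 of 3 probe sets) rose, and Cebpd, a bZIP factor, fell (−0.72, adjusted p = 0.0213, 1 of 2 probe sets). Of 26 heat shock genes 1 rose and 2 fell. Dnajb4, an Hsp40 co-chaperone, had 1788, 2043 and 2096 in the controls and 4232, 5105 and 5129.8 with cytochalasin D, a log2 change of 1.28 (SE 0.02, adjusted p = 0.000381). Hspe1 and Hsph1 fell by 0.24 and 0.13. Bag2, a regulator of Hsp70 that belongs to none of the lists, was a much larger rise: 500.1, 424 and 367 in the controls and 1729, 2182 and 2087 with cytochalasin D (2.18, SE 0.14, adjusted p = 0.00477). Dnajb4 and Bag2 remained called with any single array left out. Ppp1r15a lost its call without cytochalasin D 3 or cytochalasin D 7 (adjusted p = 0.0646 to 0.0684). Atf4 lost its call without cytochalasin D 3 (adjusted p = 0.0525). Cebpd lost its call without any 1 array other than control 1, control 3 and cytochalasin D 3 (adjusted p = 0.0509 to 0.0887). Hspe1 lost its call without any 1 array other than cytochalasin D 1 (adjusted p = 0.0531 to 0.128). Hsph1 lost its call without any 1 array (adjusted p = 0.0718 to 0.154). Cebpd and Hsph1 were not called with no replicate block (adjusted p = 0.453 and 0.928). Hspe1 and Hsph1 each had 1 of 2 tested probe sets called.

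The largest rise outside the MRTF-SRF list belonged to Fam126b, whose product is a subunit of the complex that anchors phosphatidylinositol 4-kinase to the plasma membrane. It had 94.3, 146 and 139 in the controls and 932, 931 and 1206 with cytochalasin D, a log2 change of 2.88 (SE 0.11, adjusted p = 0.00233), with 4 of 4 probe sets called. Gcnt2, a glycosyltransferase that branches poly-N-acetyllactosamine chains, was near the floor in controls and not in treated cells: 8.51, 7.6 and 9.04 in the controls and 128, 129.8 and 157 with cytochalasin D (2.66, SE 0.08, adjusted p = 0.00107), with 2 of 6 probe sets called. Tuft1, tuftelin, went from 9.52, 9.4 and 5.92 to 77.2, 75.2 and 103 (2.05, adjusted p = 0.00998). Arc, a gene best known from active neurons, had 5.34, 5.42 and 5.49 in the controls and 63.8, 84.3 and 134 with cytochalasin D. Its controls all lay under the filter on dim probe sets (6.16 to 6.27 by array), so that it was tested through its treated values, and no size or p is given for it. Of the 586 called genes 2 had all their controls under the filter, Arc and Cnn1 of the MRTF-SRF list, and the counts of called genes include both. For these dim genes the added 16 makes the log2 change smaller than the ratio of the intensities. Prkab2, a regulatory subunit of the energy sensor AMPK, had 59.7, 68.5 and 67.7 in the controls and 273, 342 and 411 with cytochalasin D (2.12, SE 0.11, adjusted p = 0.00378) with 3 of 3 probe sets called. Rccd1, a partner of a JmjC protein, had 49.5, 79 and 80.7 in the controls and 215, 439.8 and 474 with cytochalasin D (2.14, adjusted p = 0.0035). Myl6, the essential light chain of non-muscle myosin, had 84.1, 112 and 94 in the controls and 311, 846 and 606 with cytochalasin D (2.32, adjusted p = 0.0129). Fam126b, Gcnt2, Rccd1 and Prkab2 remained called with any single array left out. Tuft1 lost its call without control 3 or cytochalasin D 7 (adjusted p = 0.0504 to 0.056). Myl6 lost its call without control 3, control 7 or cytochalasin D 7 (adjusted p = 0.0575 to 0.0657).

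Actin regulators and focal adhesion genes outside the MRTF-SRF list held rises and no falls, while most members were not called. Of 42 actin nucleators, severing and capping proteins 7 rose, 0 fell and 35 were not called (6 rises and 0 falls with no replicate block), with a median of 0.047. The called share was 16.7%, against 4.63% of all genes. Arpc5, a subunit of the Arp2/3 complex that starts branched filaments, had 2137, 1872 and 1875 in the controls and 3516, 3346 and 3139 with cytochalasin D (0.76, SE 0.03, adjusted p = 0.00289). Tmsb4x, thymosin beta 4, the main protein that sequesters G-actin, had 12813, 11424 and 11709.8 in the controls and 17208, 16904 and 17751 with cytochalasin D (0.53, SE 0.04, adjusted p = 0.00663). Vasp, an elongation factor at filament ends, had 513, 393 and 283 in the controls and 848, 1163 and 949.9 with cytochalasin D (1.31, adjusted p = 0.0447), Coro1c, a coronin, had 689.6, 435 and 389.6 in the controls and 1122, 954 and 896 with cytochalasin D (0.99, adjusted p = 0.0141), and the monooxygenase gene Mical2, whose product oxidises actin, had 39.4, 37 and 35 in the controls and 61.2, 75.6 and 71.1 with cytochalasin D (0.68, adjusted p = 0.0224). Mical1 and Fscn1 rose by 0.45 and 0.25.

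Of 27 focal adhesion adaptors and kinases 5 rose and 0 fell (1 and 0 with no replicate block), with a median of 0.11. The called share was 18.5%, against 4.63% of all genes. Ilk, integrin-linked kinase, had 1174, 1476 and 1620.2 in the controls and 1516, 2150.3 and 2234 with cytochalasin D (0.45, adjusted p = 0.00822), Fermt2, the integrin activator kindlin 2, had 1308, 1604 and 1441 in the controls and 2035, 2697 and 2713 with cytochalasin D (0.76, adjusted p = 0.0074), and Lims2, a PINCH protein that binds Ilk, had 11.4, 16.8 and 12.4 in the controls and 45.8, 69.2 and 68.4 with cytochalasin D (1.38, SE 0.09, adjusted p = 0.00545). Ilk overlapped between the groups, as treated culture 1 lay below control 7, while each pair rose. Lpp and Bcar1, adaptors of focal adhesions, rose by 0.44 and 0.42. Arpc5, Tmsb4x, Lims2, Fermt2 and Ilk remained called with any single array left out. Vasp and Fscn1 lost their calls without any 1 array other than control 1 and cytochalasin D 1 (adjusted p = 0.0932 to 0.158 and 0.0793 to 0.134). Coro1c lost its call without control 3, cytochalasin D 3, cytochalasin D 7 or double-drug 1 (adjusted p = 0.0501 to 0.0718). Mical2 lost its call without any 1 array other than control 1, cytochalasin D 1 and double-drug 7 (adjusted p = 0.0533 to 0.0914). Mical1 lost its call without any 1 array other than control 7 (adjusted p = 0.0856 to 0.151). Lpp lost its call without any 1 array other than cytochalasin D 1 (adjusted p = 0.0651 to 0.173). Bcar1 lost its call without any 1 array other than double-drug 1 (adjusted p = 0.0757 to 0.157). Coro1c, Fermt2, Ilk, Lpp and Bcar1 were not called with no replicate block (adjusted p = 0.138, 0.0898, 0.577, 0.836 and 0.0571). Mical2 had 1 of 2 tested probe sets called, Fscn1 had 1 of 4, Coro1c had 2 of 3, and Lpp had 2 of 7.

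Adhesion receptors, matrix and microtubule genes held scattered calls. Of 33 integrins and adhesion receptors Pvr, a nectin-like receptor, rose (0.84, adjusted p = 0.00378) and Sdc1, a heparan sulfate proteoglycan, fell (−0.26, adjusted p = 0.0171). These calls made up 6.06% of the list, near the 4.63% of all genes. In the matrix list 10% were called and in the microtubule list 11.1%. Of 40 matrix and matrix protease genes Plaur and Tnc, tenascin C (1.02, adjusted p = 0.0334), rose, and the protease gene Adamts1 (−0.66, adjusted p = 0.0315) and the matricellular gene Ccn4 (−0.64, adjusted p = 0.00856) fell. Ccn4 in culture 1 stood far above the others in both groups: 2139, 992 and 902 in the controls and 1433, 591 and 588 with cytochalasin D. Of 27 tubulins, septins and microtubule proteins Tubb6, a beta-tubulin, had 836, 757 and 872 in the controls and 2013, 2098 and 2529 with cytochalasin D (1.41, SE 0.07, adjusted p = 0.00309), and Mapre1, which tracks microtubule ends, rose by 0.36, adjusted p = 0.0395. Another beta-tubulin went down: Tubb2a had 2068, 2127 and 2573 in the controls and 1438, 1239.6 and 1649.5 with cytochalasin D (−0.64, adjusted p = 0.0171). Pvr, Ccn4 and Tubb6 remained called with any single array left out. Sdc1 lost its call without any 1 array other than control 7 and double-drug 7 (adjusted p = 0.0503 to 0.0722). Tnc and Adamts1 lost their calls without any 1 array other than control 7 (adjusted p = 0.0636 to 0.103 and 0.0578 to 0.118). Mapre1 lost its call without any 1 array other than double-drug 1 (adjusted p = 0.0503 to 0.151). Tubb2a lost its call without any 1 array other than cytochalasin D 1, double-drug 1 and double-drug 7 (adjusted p = 0.0503 to 0.0777). Pvr, Tnc, Adamts1, Ccn4, Mapre1 and Tubb2a were not called with no replicate block (adjusted p = 0.0522, 0.133, 0.32, 0.858, 0.118 and 0.16). Tnc and Tubb2a each had 1 of 2 tested probe sets called, Sdc1 had 1 of 4, Mapre1 had 3 of 5, and Pvr had 5 of 7. Coding sequences of tubulin genes are close to each other, and binding of related transcripts was not tested.

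The largest fall of all belonged to Arrdc3, an alpha-arrestin that links membrane proteins to ubiquitin ligases. It had 1585, 1293 and 1485 in the controls and 284, 169 and 263 with cytochalasin D, a log2 change of −2.56 (SE 0.20, adjusted p = 0.00788). Its relatives fell by less: Txnip, the thioredoxin-binding alpha-arrestin that responds to glucose, had 14360.1, 13696 and 15255 in the controls and 9593, 10318 and 10539 with cytochalasin D (−0.51, SE 0.04, adjusted p = 0.00588, 1 of 2 probe sets), and Arrdc4 had 444, 396 and 345 in the controls and 364, 329.5 and 246 with cytochalasin D (−0.33, adjusted p = 0.047). In the same list of 19 genes Slc2a1, the glucose transporter GLUT1, rose: 3857, 4264 and 4357 in the controls and 7229.5, 7907 and 9512 with cytochalasin D (0.97, SE 0.05, adjusted p = 0.00378, 3 of 3 probe sets), as did Nedd4l, a ubiquitin ligase (0.47, adjusted p = 0.043). In all 2 rose, 3 fell and 14 were not called (1 and 2 with no replicate block), with a median of 0.035. The called share was 26.3%, against 4.63% of all genes. Txnip and Slc2a1 remained called with any single array left out. Arrdc3 lost its call without cytochalasin D 3 (adjusted p = 0.0503). Arrdc4 lost its call without any 1 array (adjusted p = 0.0661 to 0.145). Nedd4l lost its call without any 1 array other than control 7 (adjusted p = 0.081 to 0.138). Arrdc4 and Nedd4l were not called with no replicate block (adjusted p = 0.599 and 0.208). Nedd4l had 1 of 3 tested probe sets called.

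Lists of chemokines and of interferon response genes held falls and no rises. Of 21 chemokines, cytokines and receptors 0 rose, 4 fell and 17 were not called (0 and 2 with no replicate block), with a median of −0.23. Ccl2, which attracts monocytes, had 2383, 2174 and 3044 in the controls and 606, 879.9 and 688 with cytochalasin D, a change of −1.79 (SE 0.18, adjusted p = 0.013). Ifnz, a type I interferon, had 65.5, 83.9 and 88.6 in the controls and 22.9, 25.2 and 23.6 with cytochalasin D (−1.25, SE 0.07, adjusted p = 0.00404). Ackr3, a scavenging chemokine receptor, had 2432, 2101 and 2735 in the controls and 1449, 1249.9 and 1761 with cytochalasin D (−0.70, SE 0.03, adjusted p = 0.00289), and Cxcl1 fell as described. Of 20 NF-kappaB subunits, inhibitors and feedback genes 1 fell and 0 rose, a share near the 4.63% called among all genes. It was Vcam1, an adhesion molecule for leukocytes, which had 974, 751 and 653 in the controls and 621, 491 and 428 with cytochalasin D (−0.61, adjusted p = 0.00511, 2 of 3 probe sets). The NF-kappaB list leaves out the subunit gene Rel, which rose and was counted with the immediate-early factors. Of 17 interferon response genes Irf1 (−0.74, adjusted p = 0.0362) and Ifit2 (−0.21, adjusted p = 0.0446) fell and 0 rose, which is 11.8% called. Ifnz, Ackr3 and Vcam1 remained called with any single array left out. Ccl2 lost its call without control 1 or cytochalasin D 7 (adjusted p = 0.0561 to 0.0606). Irf1 lost its call without any 1 array other than double-drug 7 (adjusted p = 0.0501 to 0.129). Ifit2 lost its call without any 1 array other than cytochalasin D 1 (adjusted p = 0.0619 to 0.144). Ackr3, Vcam1, Irf1 and Ifit2 were not called with no replicate block (adjusted p = 0.132, 0.301, 0.157 and 0.609). Cd14 and Lyz2, the leukocyte markers above 100, had means of 196 and 138 in controls and 148 and 119 with cytochalasin D, and neither was called. The summed level of the 8 leukocyte markers was 372 to 444 in controls and 283 to 385 with cytochalasin D, and its part in these falls was not tested.

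Transcriptional regulators of development were among the falls. Of 11 genes of the Snail, Zeb and Twist list 0 rose and 3 fell (0 and 2 with no replicate block). The called share was 27.3%, against 4.63% of all genes. The median was −0.012, with 5 positive and 6 negative changes. Snai1, a repressor of epithelial genes, had 254, 285 and 300.5 in the controls and 148, 85.4 and 115 with cytochalasin D (−1.18, SE 0.19, adjusted p = 0.048), and Snai2, its paralogue, had 10848, 13259 and 12393 in the controls and 7956, 7409 and 7869 with cytochalasin D (−0.65, adjusted p = 0.0212, 2 of 2 probe sets). Foxc2, a forkhead factor, had a change of −0.61, adjusted p = 0.0275. Foxc1 of the same list had a change of 0.34 that did not pass the test (adjusted p = 0.0542). Six4, a homeobox factor, had 387, 392 and 287 in the controls and 202, 166 and 159 with cytochalasin D (−0.95, adjusted p = 0.0195, 3 of 4 probe sets), and Jade2, a PHD finger protein of a histone acetylation complex, had 222, 287 and 330.2 in the controls and 101, 113 and 180.2 with cytochalasin D (−1.02, adjusted p = 0.0141). Fam43a, not counted among these regulators, had 562, 593 and 654 in the controls and 193, 132 and 164 with cytochalasin D (−1.80, SE 0.18, adjusted p = 0.0134), with treated values all under the lowest control. Snai1 lost its call without any 1 array other than control 1 (adjusted p = 0.0678 to 0.153). Snai2 lost its call without any 1 array other than control 1 and cytochalasin D 1 (adjusted p = 0.0579 to 0.0887). Foxc2 lost its call without any 1 array other than cytochalasin D 1 and cytochalasin D 3 (adjusted p = 0.0611 to 0.103). Six4 lost its call without any 1 array other than cytochalasin D 7, double-drug 1 and double-drug 7 (adjusted p = 0.0514 to 0.0839). Jade2 lost its call without control 1 or control 3 (adjusted p = 0.0632 to 0.0677). Fam43a lost its call without control 3, control 7, cytochalasin D 3 or cytochalasin D 7 (adjusted p = 0.0569 to 0.0746). Foxc2, Six4 and Jade2 were not called with no replicate block (adjusted p = 0.204, 0.112 and 0.21).

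Histone and Hox genes fell in part. In the Hox list 16.7% were called, against 4.63% of all genes, and the median change was −0.055. H1f2, a linker histone, had 2806, 2912 and 3679 in the controls and 1064, 1128 and 1542 with cytochalasin D, a change of −1.33 (SE 0.03, adjusted p = 0.000499) with 2 of 2 probe sets called. H2aw, an H2A gene outside the list, had 395 ± 56.7 in controls and 202 ± 42 with the drug (SD over 3 arrays; −0.92, adjusted p = 0.0127, 2 of 2 probe sets). H1f2 was the 1 called among 13 histone genes (7.69%, against 4.63% of all genes), of which 12 had a negative change. The histone median was −0.11, against −0.0044 over all genes, and the signs were not tested. H2az1 was not called on the probe set with the highest mean, but 1 of its 2 probe sets was called lower. Of 18 Hox genes 0 rose and 3 fell (0 and 2 with no replicate block): Hoxa2 with 226, 184 and 212 in the controls and 122, 99.9 and 97.7 with cytochalasin D (−0.87, SE 0.06, adjusted p = 0.00476), its neighbour Hoxa3 with 169, 213 and 211 in the controls and 99.9, 96.8 and 115 with cytochalasin D (−0.83, adjusted p = 0.0116), and Hoxb3 with 146, 181 and 222 in the controls and 101, 115 and 142 with cytochalasin D (−0.55, adjusted p = 0.0141). Hoxd3os1, a noncoding transcript opposite the Hoxd3 gene, had 89.3, 170.2 and 86.3 in the controls and 16.8, 26.2 and 18.7 with cytochalasin D (−1.79, SE 0.19, adjusted p = 0.0152). Hoxd3 itself had 13.1, 21.1 and 20.3 in the controls and 11.9, 12.5 and 17.9 with cytochalasin D, and a change of −0.18 that did not pass the test (adjusted p = 0.267). Hoxa5 (0.29), Hoxa7 (−0.22), Hoxd8 (−0.24) and Hoxd9 (−0.21) were not called. Hoxb9 had a change of 0.54 that did not pass the test (adjusted p = 0.09), and 7 of the 18 Hox changes were positive. H1f2 and Hoxa2 remained called with any single array left out. H2aw and Hoxa3 lost their calls without control 7, cytochalasin D 3 or cytochalasin D 7 (adjusted p = 0.0547 to 0.0718 and 0.0525 to 0.0582). Hoxd3os1 lost its call without control 1, cytochalasin D 1, cytochalasin D 3 or cytochalasin D 7 (adjusted p = 0.0503 to 0.0806). Hoxb3 lost its call without control 3, cytochalasin D 3 or cytochalasin D 7 (adjusted p = 0.063 to 0.0727). H2aw and Hoxb3 were not called with no replicate block (adjusted p = 0.0868 and 0.278). Hoxa3 and Hoxb3 each had 1 of 2 tested probe sets called. Binding of related histone transcripts was not tested.

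Numbered zinc finger genes, most of which encode repressors with tandem C2H2 fingers, were the largest list. Of 271 tested 7 rose, 21 fell and 243 were not called (6 and 10 with no replicate block). A negative change was seen in 205 of the 271, with a median of −0.099, against −0.0044 over all genes, and the signs were not tested. The falls amounted to 7.75% of the list, against 2.05% of all genes, and the rises to 2.58%, the same as over all genes. Zfp568 had 59.3, 71.6 and 71 in the controls and 308, 241 and 342 with cytochalasin D (1.90, SE 0.11, adjusted p = 0.00418, 1 of 2 probe sets), and Zfp281, a regulator of pluripotency genes, had 741, 730.3 and 579 in the controls and 1724, 1669 and 1629.8 with cytochalasin D (1.28, SE 0.09, adjusted p = 0.0056). Zfp644 rose by 1.16, adjusted p = 0.0131, and its promoter holds a CArG box. The largest falls were Zfp472, with 227, 266 and 238 in the controls and 131, 102 and 125 with cytochalasin D (−0.94, adjusted p = 0.0361), and Zfp53, with 644, 742 and 679 in the controls and 340.3, 346 and 382 with cytochalasin D (−0.92, adjusted p = 0.0147, 1 of 2 probe sets). Zfp61 (−0.63, adjusted p = 0.00289) and Zfp141 (−0.41, adjusted p = 0.00404) fell by less and with little spread between pairs. Zfp568, Zfp281, Zfp61 and Zfp141 remained called with any single array left out. Zfp644 lost its call without control 3, control 7 or cytochalasin D 3 (adjusted p = 0.0554 to 0.0733). Zfp472 lost its call without any 1 array other than cytochalasin D 3 (adjusted p = 0.0622 to 0.126). Zfp53 lost its call without control 3, control 7, cytochalasin D 1 or cytochalasin D 3 (adjusted p = 0.0522 to 0.0746). Zfp61 and Zfp141 were not called with no replicate block (adjusted p = 0.0511 and 0.295). Zfp644 had 3 of 6 tested probe sets called.

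Many of the falling members lie close together on chromosome 17. In the order of protein-coding genes of assembly GRCm38.p6, the stretch from Zfp160 to Zfp943 holds 20 genes, of which 14 were tested, 7 fell, 1 rose and 6 were not called. This stretch was picked after the values were seen, so its counts are a description. Zfp54 (−0.75), Zfp51 (−0.65), Zfp53 (−0.92) and Zfp52 (−0.66) follow each other directly, and Zfp760 (−0.80) is next to Zfp229 (−0.52). Zfp943 at the far end fell by 0.25 on the log2 scale, and Zfp160 at the other end rose by 0.69. The 13 tested genes after Zfp160 all had negative changes, and the median over the 14 was −0.38. Over chromosome 17, 10 of 36 tested numbered zinc finger genes fell and 1 rose, and of those placed on other chromosomes 11 of 233 fell and 6 rose. With no replicate block Zfp54, Zfp53 and Zfp52 were called of the 7 that fell (adjusted p = 0.00467, 0.00359 and 0.0165), as was Zfp160 (0.00605). Zfp160 lost its call without control 1, cytochalasin D 3 or cytochalasin D 7 (adjusted p = 0.0561 to 0.0704). Zfp54 lost its call without control 1, control 3, control 7, cytochalasin D 3 or cytochalasin D 7 (adjusted p = 0.0508 to 0.0641). Zfp51 lost its call without any 1 array other than cytochalasin D 1 (adjusted p = 0.0522 to 0.124). Zfp53 lost its call without control 3, control 7, cytochalasin D 1 or cytochalasin D 3 (adjusted p = 0.0522 to 0.0746). Zfp52 lost its call without any 1 array other than control 1 (adjusted p = 0.0543 to 0.119). Zfp760 lost its call without cytochalasin D 7 (adjusted p = 0.0525). Zfp229 lost its call without any 1 array other than cytochalasin D 3 and double-drug 3 (adjusted p = 0.055 to 0.0888). Zfp943 lost its call without any 1 array (adjusted p = 0.0624 to 0.137). Zfp51, Zfp760, Zfp229 and Zfp943 were not called with no replicate block (adjusted p = 0.0851, 0.084, 0.685 and 0.241). Zfp160, Zfp54, Zfp52 and Zfp943 each had 1 of 2 tested probe sets called. Neighbouring genes of this kind are near copies of each other, and binding of one gene's transcripts to another's probe set was not tested.

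**Figure D4:**
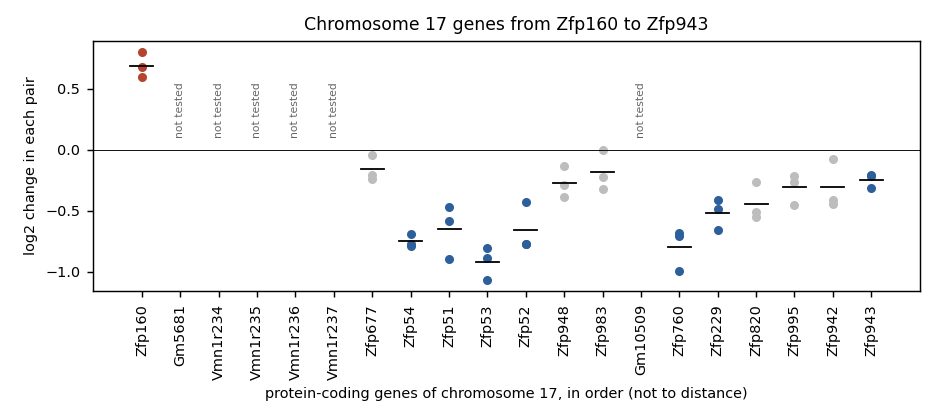
Log2 change in each of the 3 pairs (vertical axis) for the 20 protein-coding genes of chromosome 17 from Zfp160 to Zfp943, in their order along the chromosome and not to distance. Points are pairs, bars fitted changes, red a called rise, blue a called fall and grey genes not called, and 6 genes were not tested. Zfp160 is at 0.69 and the called falls run from −0.25 to −0.92.

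Chromatin, ubiquitin and transport genes changed in small numbers. Calls made up 10.8% of the chromatin list, 14.3% of the ubiquitin list and 11.5% of the transporter list, against 4.63% of all genes. Of 37 chromatin regulators and histone demethylases 4 rose and 0 fell (1 and 0 with no replicate block): Jarid2, a partner of Polycomb proteins, had 35.3, 42.3 and 53.3 in the controls and 134, 88.6 and 152 with cytochalasin D (1.22, adjusted p = 0.0224), and the demethylase genes Kdm7a (0.73) and Kdm3a (0.39) and the DNA-binding gene Arid5b (0.59) rose by less. Of 28 ubiquitin ligase and deubiquitinase genes Kctd10 (0.81), Siah2 (0.70) and Klhl21 (0.54) rose and Trim8 (−0.42) fell. Of 26 transporters the arginine transporter gene Slc7a1 (0.36) rose and the zinc exporter gene Slc30a1 (−0.76) and the potassium channel gene Kcnn4 (−0.59) fell. Jarid2 lost its call without any 1 array other than cytochalasin D 3 (adjusted p = 0.0503 to 0.091). Kdm7a and Klhl21 lost their calls without any 1 array (adjusted p = 0.078 to 0.161 and 0.0549 to 0.147). Arid5b and Slc7a1 lost their calls without any 1 array other than control 3 and cytochalasin D 3 (adjusted p = 0.0511 to 0.0718 and 0.063 to 0.0848). Kdm3a lost its call without any 1 array other than cytochalasin D 1 (adjusted p = 0.0598 to 0.139). Kctd10 lost its call without control 3, control 7, cytochalasin D 3, cytochalasin D 7 or double-drug 1 (adjusted p = 0.0652 to 0.0897). Siah2 lost its call without control 3, control 7, cytochalasin D 1, cytochalasin D 3 or cytochalasin D 7 (adjusted p = 0.0608 to 0.0807). Trim8 lost its call without any 1 array other than double-drug 1 and double-drug 3 (adjusted p = 0.0742 to 0.119). Slc30a1 lost its call without any 1 array other than control 1, cytochalasin D 1 and cytochalasin D 3 (adjusted p = 0.0686 to 0.104). Kcnn4 lost its call without any 1 array other than double-drug 3 and double-drug 7 (adjusted p = 0.066 to 0.12). Kdm7a, Arid5b, Kdm3a, Kctd10, Klhl21, Trim8 and Slc7a1 were not called with no replicate block (adjusted p = 0.0536, 0.199, 0.112, 0.414, 0.0746, 0.0752 and 0.156). Slc30a1 and Kcnn4 were not called with no replicate block (adjusted p = 0.242 and 0.172). Siah2, Slc7a1, Slc30a1 and Kcnn4 each had 1 of 2 tested probe sets called, Trim8 had 1 of 3, Jarid2 had 2 of 3, Arid5b had 2 of 4, and Kdm7a had 3 of 4.

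Growth and housekeeping lists held few calls. Of 28 mitosis genes 22 had a negative change, as had 23 of 31 cyclins and DNA replication genes. The median change over all genes was −0.0044, and these counts of signs were not tested. With 1 probe set per gene, mitosis genes (28 tested), ribosome biogenesis genes (31) and ribosomal protein genes (18) held 0 calls in limma, with medians of −0.12, −0.036 and −0.012. In the same lists the genes with the smallest adjusted p were Mad2l1 (−0.35, adjusted p = 0.0541), Gnl3 (0.13, adjusted p = 0.11) and Rps24 (−0.18, adjusted p = 0.0563). Rps24 was called with no replicate block (adjusted p = 0.0343). With the block, other probe sets of 2 ribosomal protein genes were called lower, 2 of 5 for Rps24 and 1 of 3 for Rpl27. Of 31 cyclins and DNA replication genes 2 fell: Ccnd1, cyclin D1, had 1122, 737 and 753 in the controls and 684, 451 and 568 with cytochalasin D (−0.59, adjusted p = 0.0445, 3 of 3 probe sets), and Cdc6, which loads the replicative helicase, had 388, 269 and 326 in the controls and 262, 180.0 and 241 with cytochalasin D (−0.50, adjusted p = 0.00865). Of 16 clock genes Dbp, an output gene of the clock, fell (−0.57, adjusted p = 0.0268), of 20 cholesterol genes Sc5d rose (0.21, adjusted p = 0.0257), and of 31 splicing factors Hnrnpa2b1 fell (−0.19, adjusted p = 0.047). Calls made up 6.45% of the cyclin and replication list, 6.25% of the clock list, 5% of the cholesterol list and 3.23% of the splicing list. All these shares lie near the 4.63% of all genes. In the Notch and Wnt list of 24, Jag1 (0.21) and Fzd7 (0.43) rose and Ccn4, Apcdd1 (−0.52) and Wnt5a (−0.49) fell, 20.8% of the list. In the guidance list of 29, Ephb3 (−0.75) and Nrp1 (−0.30) fell, 6.90% of the list. Cdc6 remained called with any single array left out. Fzd7 lost its call without any 1 array (adjusted p = 0.0612 to 0.109). Jag1 lost its call without control 3, cytochalasin D 3 or cytochalasin D 7 (adjusted p = 0.0504 to 0.053). Apcdd1 lost its call without any 1 array other than control 1, cytochalasin D 1 and double-drug 7 (adjusted p = 0.0555 to 0.0816). Wnt5a lost its call without any 1 array other than double-drug 3 and double-drug 7 (adjusted p = 0.0578 to 0.099). Ephb3 lost its call without control 3 or control 7 (adjusted p = 0.0522 to 0.0631). Nrp1 lost its call without control 1, control 3, control 7, cytochalasin D 1 or double-drug 1 (adjusted p = 0.0517 to 0.0641). Dbp lost its call without any 1 array other than cytochalasin D 1 (adjusted p = 0.062 to 0.106). Sc5d lost its call without any 1 array other than cytochalasin D 7 (adjusted p = 0.0559 to 0.0956). Ccnd1 lost its call without any 1 array other than control 7 (adjusted p = 0.0591 to 0.16). Hnrnpa2b1 lost its call without any 1 array other than double-drug 7 (adjusted p = 0.0727 to 0.15). Fzd7, Jag1, Wnt5a, Nrp1, Dbp, Ccnd1 and Cdc6 were not called with no replicate block (adjusted p = 0.204, 0.751, 0.183, 0.276, 0.562, 0.384 and 0.404). Hnrnpa2b1 was not called with no replicate block (adjusted p = 0.738). Jag1 and Dbp each had 1 of 2 tested probe sets called, Wnt5a, Nrp1 and Sc5d each had 1 of 3, Hnrnpa2b1 had 1 of 4, and Apcdd1 had 4 of 5.

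**Figure D5:**
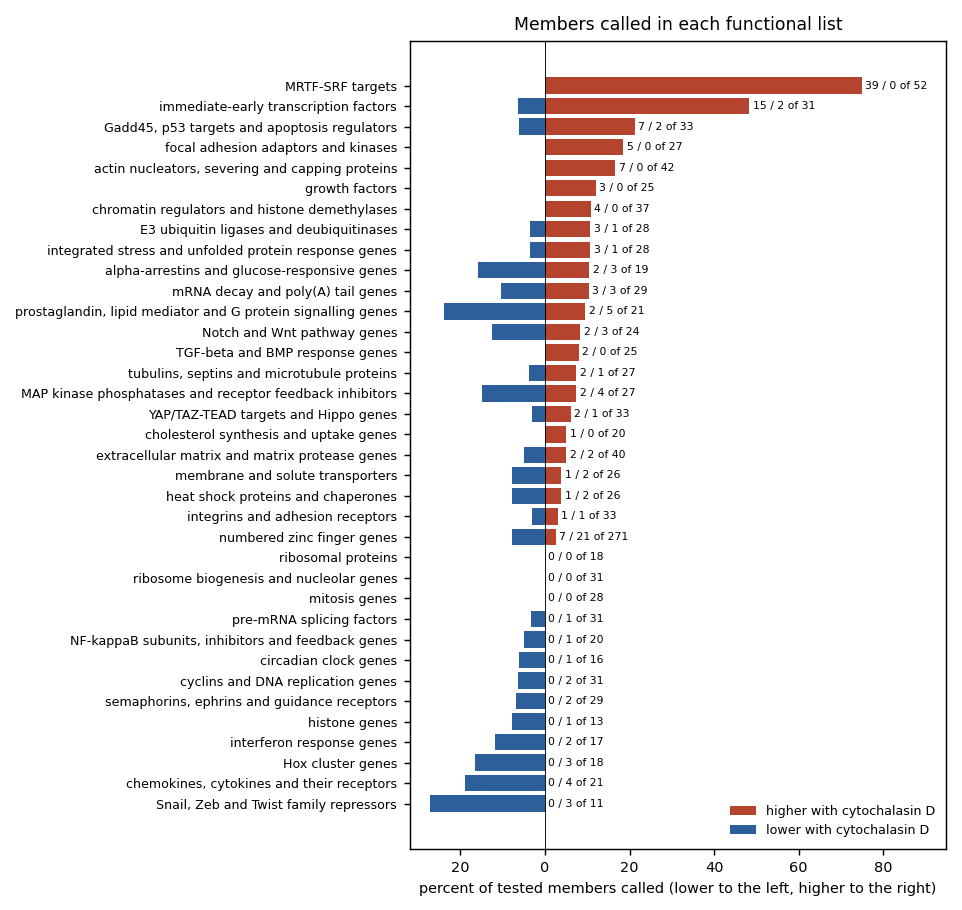
Percent of tested members called in each list reported, higher to the right in red and lower to the left in blue (horizontal axis), with the counts of higher and lower members and of members tested beside each bar. The MRTF-SRF list (39 of 52 higher) and the immediate-early list (15 of 31 higher) lead, and over all genes 2.58% were higher and 2.05% lower. The lists were chosen with earlier results of these data known.

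The double-drug arrays share the controls and the estimate of the spread with this comparison, so their values are given side by side and no test is drawn from them. For Gcnt2 they were 20.7, 28.6 and 29.6, for Arc 11.6, 9.04 and 17.5, for Lurap1l 2398, 2302 and 1983 and for Bag2 687, 790.5 and 665. For Zfp36 they were 1272, 1208 and 1503, for Ier2 4669.9, 3696 and 3838, for Atf3 1306, 1696 and 3329 and for Ptgs2 8558, 7383 and 9560.3. For all 8 of these genes, every double-drug value was above every control. Among the falls, Ifnz had 17, 26.1 and 25.4, Neat1 1644, 2838 and 2388, Arrdc3 917, 459 and 462 and Txnip 12779, 12723 and 13619. For all 4, every double-drug value was below every control. In Arrdc3 and Txnip they were also above every value with cytochalasin D alone. The genes shown are a selection, and not all named genes behaved so. For Socs3 the double-drug values of 1208, 1230 and 1733 overlapped the controls of 1205, 1548 and 2530.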

How the data were processed

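RNA of 9 cultures was measured on 9 Affymetrix mouse arrays, 3 in each of 3 groups. The deposited table gives each probe set of each array an intensity, not on a log scale, which the authors had normalized. MAS5 and GCRMA are named in the submitters' processing notes, without saying which made these values. The median intensity of an array was 7.57 to 7.84, and precision is limited by how many arrays there are. Gene symbols came from the platform annotation; of 45037 probe sets other than controls, 34945 had 1 symbol, 932 several and 9160 none, and genes were named from those with 1.

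Intensities were changed to log2(intensity + 16), which understates the changes of dim genes. A probe set was tested if it exceeded the 40th percentile of its array on at least 3 arrays. Linear models were fitted to all 9 arrays in R 4.3.3 with limma 3.58.1 (lmFit and eBayes), with 1 coefficient per group and the replicate number as a block, which left 4 residual degrees of freedom. Two-sided p-values were adjusted by Benjamini-Hochberg over all 27034 tested probe sets, and a call needed an adjusted p under 0.05. The script was tested on simulated data. SE is limma's standard error of a log2 change, and each group holds 3 arrays.

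Whether the numbers pair the cultures was checked by correlating deviations from the group means. Control and cytochalasin D arrays of the same number correlated at 0.71, 0.08 and 0.65 for numbers 1, 3 and 7, and control 3 correlated at 0.39 with cytochalasin D 7. The labels do not say what a number marks, so the pairing of number 3 has no support in these values, and results with no replicate block stand beside those with it.

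Each gene is represented by its tested probe set with the highest mean. Named genes are the 20 largest rises and falls outside the MRTF-SRF list among calls with 3 pairs of the same sign, the 4 largest rises of that list, and up to 4 members of every other list with the smallest adjusted p; clone names were passed over (1 rise and 2 falls). Further called members of a list were named after their values were seen. There are 43 lists, cell type markers included, and 1 of them is not reported here. The genes and lists were chosen with earlier results of these data known. Alternatives were the block, the arrays in the fit, the added constant, the filter, quantile normalization, a trend in the prior and leaving out each array; the fit on 6 arrays with no block was chosen after seeing the data. Promoter sequences are RefSeq's (GRCm38.p6), and gene order on chromosomes comes from the same assembly.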

Additional observations from a re-analysis of the deposited data

How the results depend on the processing

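Counts of calls moved with the model, as higher probe sets, lower probe sets and list genes called, which were 626, 418 and 191 with the replicate block. With no replicate block they were 309, 114 and 106. On the 6 arrays compared, with the replicate block, they were 0, 0 and 0 (limma, with 1895 higher and 1980 lower at an unadjusted p under 0.05), and there with no replicate block 136, 23 and 52; both fits hold fewer arrays. With no filter on dim probe sets they were 347, 155 and 126, and with the filter at the 60th percentile 1018, 711 and 271; the cause was not tested beyond the number of probe sets. Higher calls made up 626 of 1044, 73.0% with no replicate block, 52.9% after quantile normalization and 45.3% without cytochalasin D 1 (492 higher and 593 lower). Added constants of 1 and 64, quantile normalization and a trend in the prior kept the 3 counts within 1.5 times. Leaving out 1 array gave 261 to 492 higher and 91 to 593 lower probe sets and 90 to 163 list genes.

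Of 126 named genes called, 67 remained called with no replicate block, with an added constant of 1 or 64 123 and 118, after quantile normalization 123, with the trend 122, with no filter 94, at the 60th percentile 119, on 6 arrays with no replicate block 31, and with single arrays left out 65 to 100. Dim probe sets lie near the added 16, where changes are compressed.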
